A study of Mus musculus with 8 samples.

Results

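The cornified envelope and barrier genes are 38 genes chosen by symbol, whose products build the outermost shell of the epidermis and the lipids around it. A gene was taken when the platform annotation gives it a probe set with that symbol alone, and of several such probe sets the brightest on average would have been used. By this rule 36 of the 38 genes were measured, among 19938 genes with such a probe set on the arrays, and each of the 36 had 1. Dsg1a, a desmosomal cadherin, lies on a probe set shared with its close relatives and was left out. Dsc1, another desmosomal cadherin, was not analysed here.

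Keratinocytes leave the basal layer, stop dividing and, in the granular layer, lay down involucrin, loricrin and other precursors under the cell membrane, where calcium-dependent transglutaminases link them into an insoluble envelope. Lipoxygenases and lipid transporters of the same cells supply ceramides that bind to this envelope and fill the space between the dead cells. Many of the precursors are encoded side by side in one gene cluster, the epidermal differentiation complex, and 12 of the 38 genes lie on its chromosome, mouse chromosome 3.

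RNA came from back-skin keratinocytes of 8-week-old CD1 mice of mixed sex, separated with magnetic beads by the surface antigen CD34, a marker of the hair follicle bulge, or by Mts24, an antigen of the upper follicle. K14Snail mice carry the transcription factor Snail, a repressor of epithelial genes, under the keratin 14 promoter, which is active in basal keratinocytes; no treatment was given to either genotype. The 8 groups, each measured on 1 array, were K14Snail and wild type CD34 positive cells, K14Snail and wild type CD34 negative cells, K14Snail and wild type Mts24 positive cells, and K14Snail and wild type Mts24 negative cells. Each array was hybridised with pooled RNA, from 11 mice for the CD34 sorts and from 9 for the Mts24 sorts, so differences between animals were not measured. Values are log2 levels from the authors' RMA table, in which 1 unit is a doubling, and levels are compared between arrays and never between genes.

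Snai1, which encodes Snail, lay between 10.84 and 11.04 in the 4 K14Snail arrays and between 7.86 and 8.16 in the 4 wild type arrays. Cd34 stood at 13.29 and 13.57 in K14Snail and wild type CD34 positive cells, against 6.27 and 6.12 in the CD34 negative cells of these genotypes. Plet1, whose product carries the Mts24 antigen, stood at 12.64 and 12.88 in K14Snail and wild type Mts24 positive cells, against 9.16 and 9.91 in Mts24 negative cells. Each marker was also read in the other sort. Cd34 stood at 11.56 and 12.12 in K14Snail and wild type Mts24 positive cells, and at 10.51 and 10.03 in Mts24 negative cells. Plet1 stood at 11.74 and 11.82 in K14Snail and wild type CD34 positive cells, and at 11.22 and 11.15 in CD34 negative cells. Krt5 and Krt14, the basal keratins, lay between 13.28 and 13.87 in all 8 arrays, so keratinocyte RNA was present on every array. RNA of other cells was present too. The log2 of the summed level of 4 T cell genes was 12.45 to 13.26 on the negative arrays and 10.08 to 10.70 on the positive arrays. Its part in the differences between fractions was not tested. The array of K14Snail CD34 positive cells stood apart for the barrier genes: 32 of the 36 had their lowest value of all arrays there, where 17.3% of all genes tested did. Some results that rest on it are also given without it, but differences within a fraction and counts of patterns over fractions are not.

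Promoter sequences were available for 26 of the 38 genes, as 30 promoters of 250 bases before and 50 bases after a transcription start (RefSeq, build GRCm38.p6). The 7 printed here belong to genes that carry the patterns described below: Krtdap, Lor, Ivl and Abca12, which were low in K14Snail CD34 positive cells; Tgm5, which went the other way in the CD34 sort; and the neighbours Lce1a1 and Lce1b, which changed places between fractions with genotype. Their positions are chr7:30787655-30787954 on the plus strand for Krtdap and, all on the minus strand, chr3:92083093-92083392 for Lor, chr3:92573686-92573985 for Ivl, chr1:71414861-71415160 for Abca12, chr2:121085792-121086091 for Tgm5, chr3:92648258-92648557 for Lce1a1 and chr3:92656877-92657176 for Lce1b. Each is written 5′ to 3′ along the gene's strand, and capitals mark matches to 5 short motifs searched on both strands.
Krtdap: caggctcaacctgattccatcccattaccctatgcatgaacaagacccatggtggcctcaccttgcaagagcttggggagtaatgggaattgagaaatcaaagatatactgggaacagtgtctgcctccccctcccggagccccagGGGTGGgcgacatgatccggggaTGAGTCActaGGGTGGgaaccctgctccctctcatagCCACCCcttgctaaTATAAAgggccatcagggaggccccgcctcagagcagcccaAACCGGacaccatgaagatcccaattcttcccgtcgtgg
Lor: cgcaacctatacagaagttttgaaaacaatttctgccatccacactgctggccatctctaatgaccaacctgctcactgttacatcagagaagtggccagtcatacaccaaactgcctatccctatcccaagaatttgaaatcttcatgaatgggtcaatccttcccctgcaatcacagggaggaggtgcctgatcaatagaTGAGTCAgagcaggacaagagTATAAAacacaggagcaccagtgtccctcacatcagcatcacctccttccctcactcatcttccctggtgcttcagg
Ivl: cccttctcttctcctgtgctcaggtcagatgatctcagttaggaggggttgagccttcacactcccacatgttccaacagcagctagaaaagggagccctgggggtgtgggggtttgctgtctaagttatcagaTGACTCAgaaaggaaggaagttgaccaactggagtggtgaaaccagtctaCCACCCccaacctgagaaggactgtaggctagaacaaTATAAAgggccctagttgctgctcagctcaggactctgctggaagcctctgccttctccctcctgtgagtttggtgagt
Abca12: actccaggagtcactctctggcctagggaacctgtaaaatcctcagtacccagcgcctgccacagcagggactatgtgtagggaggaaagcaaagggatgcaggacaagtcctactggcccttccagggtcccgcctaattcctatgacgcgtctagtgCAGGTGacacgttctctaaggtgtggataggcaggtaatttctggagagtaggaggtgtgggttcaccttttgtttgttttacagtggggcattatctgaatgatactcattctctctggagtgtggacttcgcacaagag
Tgm5: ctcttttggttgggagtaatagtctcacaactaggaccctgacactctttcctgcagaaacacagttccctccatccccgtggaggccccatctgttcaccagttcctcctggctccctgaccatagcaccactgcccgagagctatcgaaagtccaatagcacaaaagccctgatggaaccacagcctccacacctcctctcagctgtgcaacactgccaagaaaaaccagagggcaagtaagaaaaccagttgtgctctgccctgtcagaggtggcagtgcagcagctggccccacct
Lce1a1: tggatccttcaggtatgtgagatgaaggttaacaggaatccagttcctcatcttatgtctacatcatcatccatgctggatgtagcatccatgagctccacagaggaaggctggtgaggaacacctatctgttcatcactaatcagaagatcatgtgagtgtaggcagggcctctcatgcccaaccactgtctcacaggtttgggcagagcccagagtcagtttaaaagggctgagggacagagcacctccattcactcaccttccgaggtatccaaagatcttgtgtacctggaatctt
Lce1b: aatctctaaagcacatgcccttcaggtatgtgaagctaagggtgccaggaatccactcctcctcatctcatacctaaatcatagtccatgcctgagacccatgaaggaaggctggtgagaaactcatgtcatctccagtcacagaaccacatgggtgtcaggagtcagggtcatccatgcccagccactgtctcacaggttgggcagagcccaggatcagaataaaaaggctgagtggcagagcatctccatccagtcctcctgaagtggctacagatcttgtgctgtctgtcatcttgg
In these sequences AP-1 (TGANTCA) was found in Krtdap, Lor and Ivl, a TATA box (TATAAA) in the same 3 genes, KLF (CCACCC) in Krtdap and Ivl, GRHL (AACCGG) in Krtdap, and the Snail E-box (CACCTG) in Abca12, where it is read on the other strand as CAGGTG. Tgm5, Lce1a1 and Lce1b hold none of these letters in the window. Lce1a1 and Lce1b were identical at 75.7% of the 300 bases when aligned, while the other pairs of these 7 promoters were identical at 55.3% to 63.7%.

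Over all promoters of the barrier genes, AP-1 was found in 33.3%, in 8 genes (Krtdap, Sbsn, Dmkn, Ivl, Lor, Rptn, Flg2 and Scel), against 7.81% of the 32851 promoters in the table. The Snail E-box was found in 23.3%, in Hrnr, Scel, Cdsn, Asprv1, Casp14 and Abca12, against 20.2% of all promoters. KLF was found in 36.7% against 31.5% of all promoters, the TATA box in 20.0% against 13.6%, and GRHL in 3.33% against 6.83%. No motif overlapped another in the 7 sequences printed. A match is a description of letters and not a measured binding site.

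Across the arrays the median level of the 36 genes was 10.02 in K14Snail and 11.23 in wild type CD34 positive cells, 11.55 and 11.48 in K14Snail and wild type CD34 negative cells, 11.31 and 11.46 in K14Snail and wild type Mts24 positive cells, and 12.35 and 12.29 in K14Snail and wild type Mts24 negative cells. The Mts24 negative arrays were the high end: 20 genes had their highest value in K14Snail and 11 in wild type Mts24 negative cells, where 10.1% and 14.4% of all genes tested had theirs. In such bulk RNA fewer differentiated cells and less RNA per cell cannot be told apart. Of the 36 genes, 34 were tested, having reached 7.70 on at least 2 arrays; that level is the median over named genes and arrays. Lce1f and Rptn reached it on no array, Alox12 on 5, Smpd3 on 6, and the rest on all 8.

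**Figure D1:**
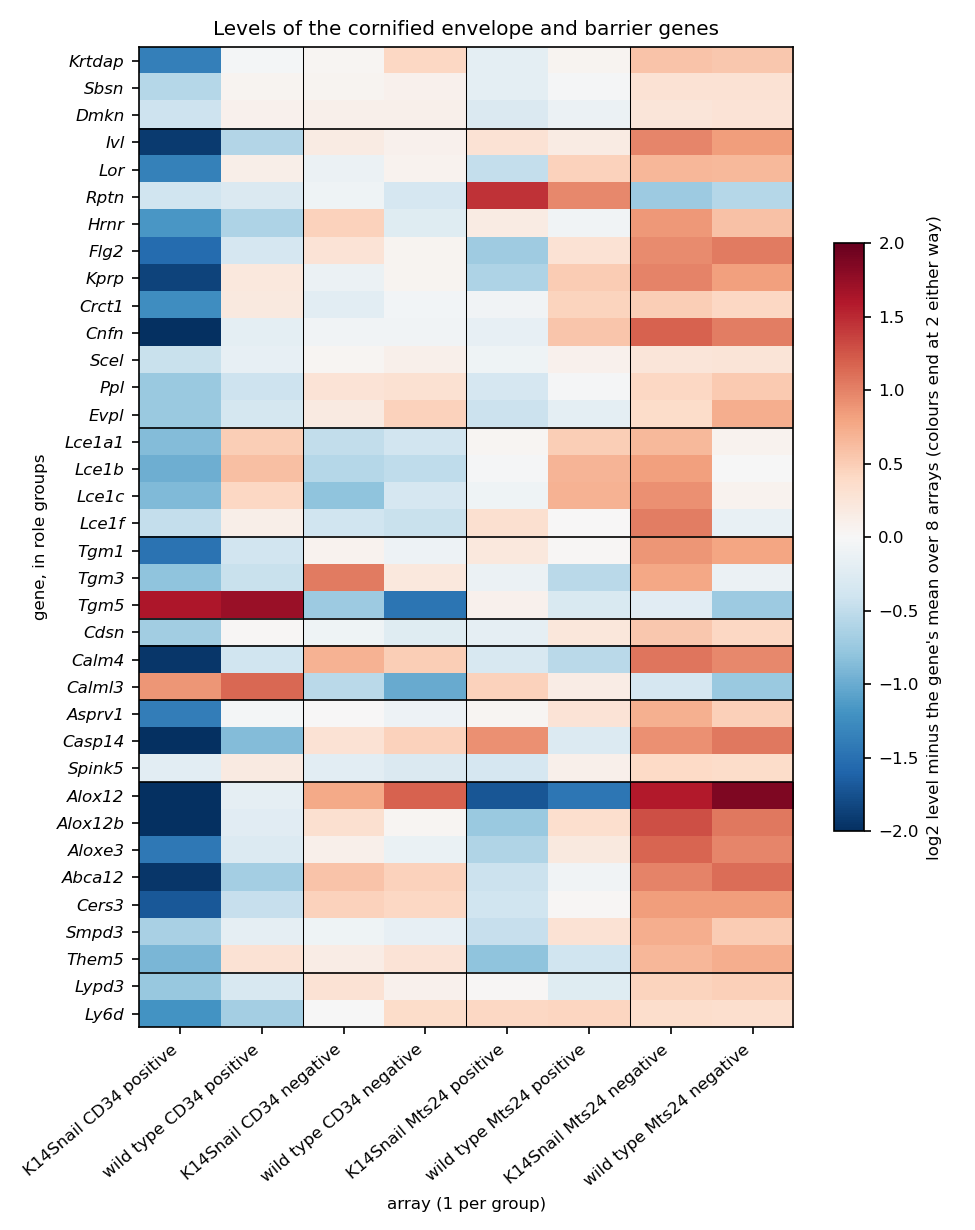
Levels of the 36 measured genes on the 8 arrays, 1 column an array and 1 row a gene, as log2 level minus the gene's own mean over the arrays; colours end at 2 either way. The first column, K14Snail CD34 positive cells, holds the lowest value of 32 genes, and the 2 columns of Mts24 negative cells the highest value of 20 genes in K14Snail and of 11 in wild type.

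Of the secreted suprabasal proteins, Krtdap, keratinocyte differentiation-associated protein, read 11.24 in K14Snail and 12.56 in wild type CD34 positive cells, 12.64 and 13.01 in K14Snail and wild type CD34 negative cells, 12.41 and 12.66 in K14Snail and wild type Mts24 positive cells, and 13.17 and 13.15 in K14Snail and wild type Mts24 negative cells. It was lowest in K14Snail CD34 positive cells and highest in the Mts24 negative cells of both genotypes. Sbsn, suprabasin, and Dmkn, dermokine, which are encoded beside Krtdap on chromosome 7, had their lowest values on the same array, at 12.18 and 12.85, and spanned no more than 0.86 over the 8 arrays.

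Among the envelope precursors and scaffold proteins, Kprp, keratinocyte proline-rich protein, read 10.12 in K14Snail and 12.18 in wild type CD34 positive cells, 11.86 and 12.03 in K14Snail and wild type CD34 negative cells, 11.35 and 12.49 in K14Snail and wild type Mts24 positive cells, and 12.96 and 12.80 in K14Snail and wild type Mts24 negative cells. Both K14Snail positive fractions lay under every other array for this gene. Flg2, filaggrin 2, a keratin-bundling relative of filaggrin, had 9.59 in K14Snail and 10.79 in wild type CD34 positive cells, 11.40 and 11.19 in K14Snail and wild type CD34 negative cells, 10.42 and 11.42 in K14Snail and wild type Mts24 positive cells, and 12.08 and 12.18 in K14Snail and wild type Mts24 negative cells. The same 2 K14Snail arrays were its lowest. Ivl, involucrin, an early precursor of the envelope, had 9.07 in K14Snail and 10.40 in wild type CD34 positive cells, 11.15 and 11.08 in K14Snail and wild type CD34 negative cells, 11.27 and 11.15 in K14Snail and wild type Mts24 positive cells, and 11.97 and 11.83 in K14Snail and wild type Mts24 negative cells, so both CD34 positive arrays lay under the rest. Lor, loricrin, the main protein of the finished envelope, had 11.50 in K14Snail and 12.97 in wild type CD34 positive cells, and 12.38 in K14Snail and 13.32 in wild type Mts24 positive cells, with the 4 negative arrays between 12.73 and 13.51. Cnfn, cornifelin, spanned the most in this role, from 9.17 in K14Snail CD34 positive cells, 2.07 under the wild type array, to 12.61 in K14Snail Mts24 negative cells.

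Evpl and Ppl, envoplakin and periplakin, are plakins that form the first scaffold of the envelope at the membrane, and they followed another order. Evpl read 9.27 in K14Snail and 9.66 in wild type CD34 positive cells, 10.19 and 10.48 in K14Snail and wild type CD34 negative cells, 9.58 and 9.81 in K14Snail and wild type Mts24 positive cells, and 10.39 and 10.74 in K14Snail and wild type Mts24 negative cells. All 4 positive arrays lay under all 4 negative arrays, and in each fraction K14Snail lay under wild type. Ppl read 11.11 in K14Snail and 11.43 in wild type CD34 positive cells, 12.12 and 12.15 in K14Snail and wild type CD34 negative cells, 11.51 and 11.82 in K14Snail and wild type Mts24 positive cells, and 12.26 and 12.36 in K14Snail and wild type Mts24 negative cells, so it had the same order of fractions. Scel, sciellin, another envelope precursor, had 11.86 in K14Snail and 12.14 in wild type CD34 positive cells, 12.35 and 12.42 in K14Snail and wild type CD34 negative cells, 12.22 and 12.40 in K14Snail and wild type Mts24 positive cells, and 12.55 and 12.57 in K14Snail and wild type Mts24 negative cells. Its whole span was under 1 log2 unit.

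The late cornified envelope genes, small proteins added at the end of envelope assembly, shared one arrangement of fractions and genotypes. Lce1b read 8.67 in K14Snail and 10.24 in wild type CD34 positive cells, 9.07 and 9.14 in K14Snail and wild type CD34 negative cells, 9.61 and 10.31 in K14Snail and wild type Mts24 positive cells, and 10.45 and 9.62 in K14Snail and wild type Mts24 negative cells. Lce1c read 9.92 in K14Snail and 11.22 in wild type CD34 positive cells, 10.002 and 10.477 in K14Snail and wild type CD34 negative cells, 10.72 and 11.51 in K14Snail and wild type Mts24 positive cells, and 11.72 and 10.88 in K14Snail and wild type Mts24 negative cells. In K14Snail skin the positive fraction was the lower of each sort, in wild type skin the higher. Lce1a1 had this arrangement too, and Lce1f, below 7.70 on all arrays, is not read. These paralogues are alike in sequence and may share probe signal, so they are not independent of one another.

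The 3 transglutaminases, which link the precursors, did not move together. Tgm1, the membrane-bound enzyme of the envelope, had 8.77 in K14Snail and 9.87 in wild type CD34 positive cells, 10.32 and 10.14 in K14Snail and wild type CD34 negative cells, 10.46 and 10.27 in K14Snail and wild type Mts24 positive cells, and 11.14 and 11.04 in K14Snail and wild type Mts24 negative cells. Tgm3, an enzyme of hair and epidermis, had 7.82 in K14Snail and 8.18 in wild type CD34 positive cells, 9.66 and 8.83 in K14Snail and wild type CD34 negative cells, 8.51 and 8.08 in K14Snail and wild type Mts24 positive cells, and 9.40 and 8.51 in K14Snail and wild type Mts24 negative cells. It was the higher in K14Snail in every fraction but CD34 positive. Tgm5, an enzyme known from inherited skin peeling in humans, had 12.40 in K14Snail and 12.52 in wild type CD34 positive cells, 10.06 and 9.32 in K14Snail and wild type CD34 negative cells, 10.88 and 10.48 in K14Snail and wild type Mts24 positive cells, and 10.56 and 10.05 in K14Snail and wild type Mts24 negative cells. Its highest values were those of CD34 positive cells, in both genotypes.

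Calm4 and Calml3, calmodulin-like calcium-binding proteins of the epidermis, ran in opposite directions. Calm4 had 9.51 in K14Snail and 11.05 in wild type CD34 positive cells, 12.14 and 11.95 in K14Snail and wild type CD34 negative cells, 11.13 and 10.91 in K14Snail and wild type Mts24 positive cells, and 12.52 and 12.42 in K14Snail and wild type Mts24 negative cells. Calml3 had 12.11 in K14Snail and 12.37 in wild type CD34 positive cells, 10.69 and 10.22 in K14Snail and wild type CD34 negative cells, 11.69 and 11.38 in K14Snail and wild type Mts24 positive cells, and 10.89 and 10.49 in K14Snail and wild type Mts24 negative cells. For Calml3 every positive array lay over every negative array, and for Calm4 every negative array over every positive one.

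Of the corneodesmosome, the junction that holds dead cells together, only Cdsn, corneodesmosin, was measured. It had 11.21 in K14Snail and 11.93 in wild type CD34 positive cells, 11.82 and 11.65 in K14Snail and wild type CD34 negative cells, 11.72 and 12.12 in K14Snail and wild type Mts24 positive cells, and 12.44 and 12.31 in K14Snail and wild type Mts24 negative cells. Casp14, a caspase that helps to break down filaggrin, had 8.15 in K14Snail and 9.75 in wild type CD34 positive cells, 10.91 and 11.08 in K14Snail and wild type CD34 negative cells, 11.54 and 10.35 in K14Snail and wild type Mts24 positive cells, and 11.54 and 11.68 in K14Snail and wild type Mts24 negative cells. It was the only gene among the 34 more than a doubling higher in K14Snail in any fraction, in Mts24 positive cells. Asprv1, a retroviral-like protease that also processes filaggrin, had 10.92 in K14Snail and 12.26 in wild type CD34 positive cells, 12.31 and 12.20 in K14Snail and wild type CD34 negative cells, 12.35 and 12.58 in K14Snail and wild type Mts24 positive cells, and 13.01 and 12.78 in K14Snail and wild type Mts24 negative cells. Spink5, an inhibitor of the kallikreins that shed dead cells, stayed between 11.72 and 12.46.

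Among the barrier lipid genes was the one with the widest span of the 36. Alox12, a 12-lipoxygenase, had 6.74 in K14Snail and 8.61 in wild type CD34 positive cells, 9.55 and 9.96 in K14Snail and wild type CD34 negative cells, 7.07 and 7.34 in K14Snail and wild type Mts24 positive cells, and 10.37 and 10.64 in K14Snail and wild type Mts24 negative cells. Values under 7.70 lie below the level set for testing, so the size of its differences is uncertain. Alox12b, the 12R-lipoxygenase that starts the oxidation of envelope ceramides, had 8.44 in K14Snail and 10.28 in wild type CD34 positive cells, 10.82 and 10.54 in K14Snail and wild type CD34 negative cells, 9.76 and 10.83 in K14Snail and wild type Mts24 positive cells, and 11.80 and 11.56 in K14Snail and wild type Mts24 negative cells. Aloxe3, the enzyme of the next step, followed the same order of K14Snail and wild type in each fraction. Abca12, the transporter that loads lipids into lamellar granules, had 9.53 in K14Snail and 10.79 in wild type CD34 positive cells, 12.04 and 11.94 in K14Snail and wild type CD34 negative cells, 11.05 and 11.41 in K14Snail and wild type Mts24 positive cells, and 12.46 and 12.60 in K14Snail and wild type Mts24 negative cells. Cers3, the ceramide synthase of very long acyl chains, had 8.71 in K14Snail and 9.94 in wild type CD34 positive cells, 10.86 and 10.82 in K14Snail and wild type CD34 negative cells, 10.002 and 10.425 in K14Snail and wild type Mts24 positive cells, and 11.25 and 11.23 in K14Snail and wild type Mts24 negative cells. For both genes the positive arrays lay under the negative arrays without overlap. Them5, an acyl-CoA thioesterase, had 11.41 in K14Snail and 12.62 in wild type CD34 positive cells, 12.47 and 12.60 in K14Snail and wild type CD34 negative cells, 11.52 and 11.93 in K14Snail and wild type Mts24 positive cells, and 12.99 and 13.05 in K14Snail and wild type Mts24 negative cells. Smpd3, a sphingomyelinase, reached only 8.67 at its highest.

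Lypd3 and Ly6d, surface proteins with a LU domain, complete the list. Ly6d had 11.72 in K14Snail and 12.24 in wild type CD34 positive cells, 12.91 and 13.29 in K14Snail and wild type CD34 negative cells, 13.33 and 13.35 in K14Snail and wild type Mts24 positive cells, and 13.28 and 13.26 in K14Snail and wild type Mts24 negative cells. Both CD34 positive arrays lay under the other 6. Lypd3 had 12.21 in K14Snail and 12.65 in wild type CD34 positive cells, 13.26 and 13.06 in K14Snail and wild type CD34 negative cells, 12.99 and 12.73 in K14Snail and wild type Mts24 positive cells, and 13.42 and 13.44 in K14Snail and wild type Mts24 negative cells, again lowest on the CD34 positive arrays.

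K14Snail skin was compared with wild type skin in each fraction to see how Snail under the keratin 14 promoter bears on the barrier genes of stem cell enriched and remaining keratinocytes. In CD34 positive cells all 34 genes tested were lower on the K14Snail array, by a median of -1.20 on the log2 scale, where the median of all 10720 genes tested was 0.01. In that fraction 20 of the 34 were at least 2-fold lower, against 2.15% of all genes tested, and none was 2-fold higher, against 2.8% of all genes. Cnfn (-2.07), Kprp (-2.06), Alox12 (-1.87) and Alox12b (-1.84) had the largest differences, and Tgm5 (-0.11), Calml3 (-0.26) and Scel (-0.28) the smallest. Of the roles, 6 of 7 barrier lipid genes, 6 of 10 precursors and scaffold proteins and 3 of 3 late envelope genes passed 2-fold. With 1 array a group this difference has no replicate check and no test.

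The other fractions differed less. In Mts24 positive cells 25 of the 34 genes were lower in K14Snail, with a median of -0.29 against 0.07 for all genes tested; Kprp (-1.13) and Alox12b (-1.07) were at least 2-fold lower, where 0.578% of all genes tested were, and Casp14 (1.19) was at least 2-fold higher, where 1.33% were. Lor and Flg2 were next, at -0.94 and -0.997. In CD34 negative cells 17 genes were higher and 17 lower in K14Snail, with a median of 0.02, and none reached 2-fold, against 0.457% of all genes tested higher and 0.401% lower. In Mts24 negative cells 23 were higher and 11 lower, with a median of 0.09, and again none reached 2-fold, against 0.466% higher and 0.271% lower. Tgm3 (0.83 and 0.89 in CD34 and Mts24 negative cells) and Tgm5 (0.74 and 0.50) were the crosslinking enzymes that stood higher in both negative fractions by most.

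**Figure D2:**
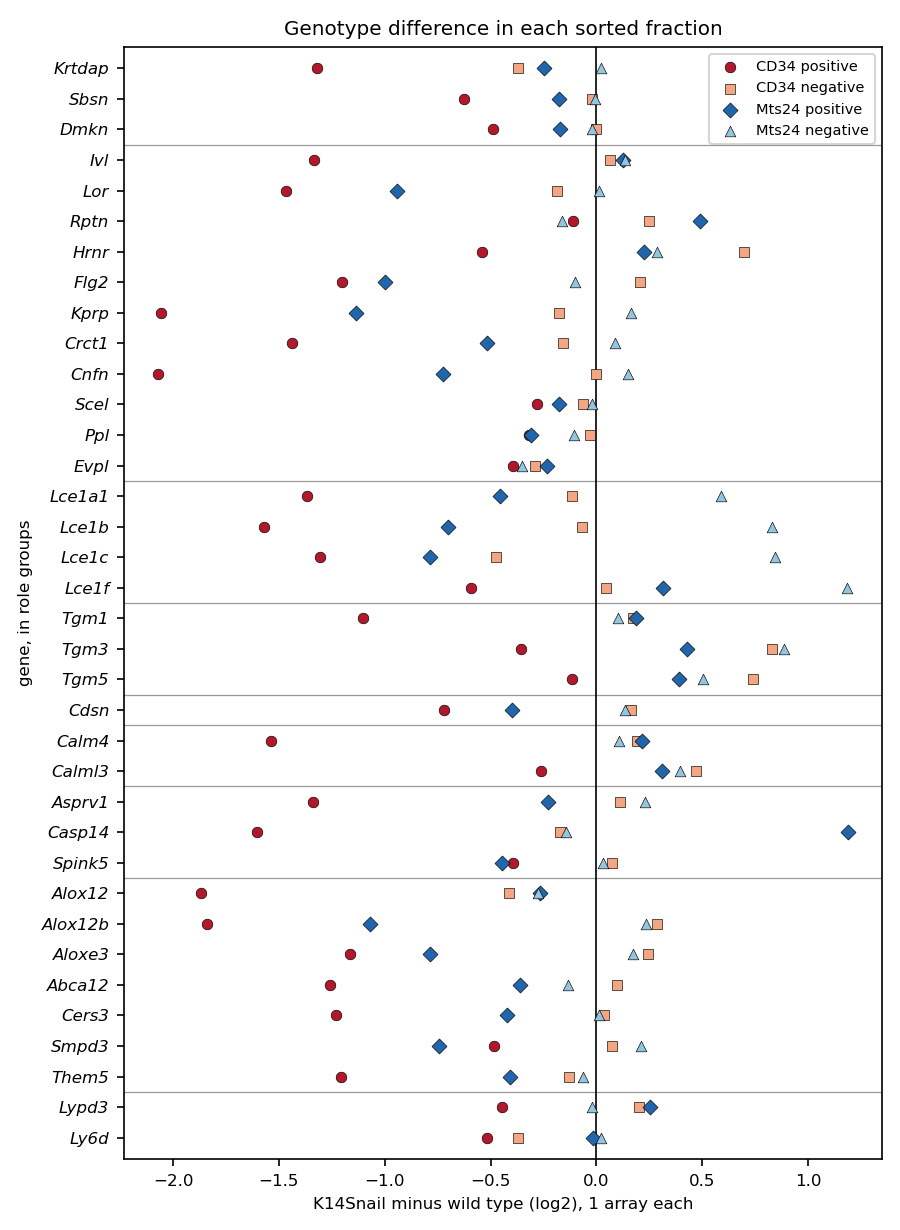
K14Snail minus wild type on the log2 scale for each of the 36 genes (rows, in role groups), with 1 point for each sorted fraction and 1 array behind each value. The CD34 positive points lie left of 0 for every gene, while the points of the CD34 and Mts24 negative fractions lie on both sides of it.

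Averaged over the 4 fractions by limma, with the pool as a random block, 0 of the 34 genes passed an adjusted p of 0.05, where 2.05% of all genes tested did; 8 of the 34 (23.5%) had an unadjusted p under 0.05, against 25.9% of all genes tested, and without the pool block 0 passed as well, where 0.382% of all genes did. The p-values rest on 8 arrays of 4 pools and measure the spread between these arrays. The median difference was -0.28, against 0.02 for all genes tested, and 30 of the 34 were negative. Without the 1 array of K14Snail CD34 positive cells the median was -0.11. Evpl came nearest to the threshold, at -0.32 ± 0.05 (1.24-fold lower, SE, limma adjusted p = 0.0511, lower in 4 of 4 fractions). Its adjusted p was 0.0914 without the pool block and ranged from 0.0393 to 0.545 over the alternatives. Tgm5 (0.38 ± 0.12, adjusted p = 0.134), Lor (-0.65 ± 0.22, adjusted p = 0.147) and Ppl (-0.19 ± 0.06, adjusted p = 0.150) followed in limma's order. Kprp had the largest mean difference, -0.80 ± 0.31, with a limma adjusted p of 0.184.

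Lower values in K14Snail in all 4 fractions were found for 7 of the 34 genes, against 12.6% of all genes tested: Sbsn, Dmkn, Scel, Ppl, Evpl, Alox12 and Them5. The share is not a like one, since all 34 were lower in CD34 positive cells, where 5105 of the 10720 genes tested were. Higher values in K14Snail in all 4 were found for none, against 18.9%. Apart from Alox12 and Them5, the 7 genes lower in all 4 fractions had small differences, at most 0.63 in any fraction. Lower values in K14Snail CD34 positive cells with higher values in the remaining 3 fractions were found for another 7, against 4.73% of all genes tested: Ivl, Hrnr, Tgm1, Tgm3, Tgm5, Calm4 and Calml3. Here too all 34 genes met the CD34 positive part, so this share is not a like one either. For Calm4, Tgm1 and Ivl the CD34 positive side was the larger, with -1.54, -1.10 and -1.33 there and 0.06 to 0.22 in the remaining fractions, while for Hrnr, Tgm3, Tgm5 and Calml3 it was -0.54 to -0.11, against 0.23 to 0.89 in the rest.

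Whether the genotype difference itself depended on the fraction was tested with an interaction term, the difference in positive minus that in negative fractions. None of the 34 genes passed, by limma with or without the pool block, where 0.0% of the 10720 genes tested did; 14 of the 34 (41.2%) and 7.88% of all genes had an unadjusted p under 0.05. The median over the barrier genes was -0.72, against 0.04 for all genes, and 33 of the 34 were negative, Evpl (0.01) being the exception. Flg2 (-1.15 ± 0.17, adjusted p = 0.232), Aloxe3 (-1.18 ± 0.18, adjusted p = 0.233) and Alox12b (-1.71 ± 0.29, adjusted p = 0.279) came first in limma's order. Kprp (-1.59 ± 0.38) and Lce1b (-1.52 ± 0.49) were of similar size with wider errors.

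The term was carried mostly by the CD34 sort, where its median was -1.25 with all 34 genes below 0, while in the Mts24 sort the median was -0.31 with 28 below 0. Below 0 in both sorts were the same 28 genes, against 25.0% of all genes tested. That count rests on the Mts24 sort, since all 34 were below 0 in the CD34 sort. Without one or the other CD34 positive array the positive side of the term was the Mts24 sort alone, with 1 residual degree of freedom. The median of the term was then -0.33, with -1.33 for Alox12b, -1.001 for Aloxe3 and 1.35 for Casp14. The positive side held 1 array a genotype, so the spread of its genotype difference was not measured. Calls of barrier genes are therefore not read from these runs, where limma called 0.97% of all genes tested either way. Without one or the other Mts24 positive array the positive side was the CD34 sort alone, again with 1 array a genotype. Calls of barrier genes are not read from these runs either, where limma called 6.07% of all genes tested either way. The late envelope genes were negative in both sorts: Lce1b had -1.5 in the CD34 and -1.53 in the Mts24 sort, Lce1c -0.83 and -1.63, and Lce1a1 -1.25 and -1.04. Calm4 (-1.73 and 0.11), Ivl (-1.40 and -0.01), Alox12 (-1.46 and 0.01) and Tgm1 (-1.27 and 0.09) differed by genotype in the CD34 sort and hardly in the Mts24 sort.

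Lower values in both K14Snail positive fractions together with higher values in both K14Snail negative fractions were found for 7 of the 34 genes, against 4.24% of all genes tested: Cdsn, Asprv1, Spink5, Alox12b, Aloxe3, Cers3 and Smpd3. None of them passed the interaction test, and all 34 genes met the CD34 positive part of this pattern.

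A reversal of the sort itself was seen for 4 genes, against 1.86% of all genes tested: Lce1a1, Lce1b, Lce1c and Crct1, a cysteine-rich protein encoded elsewhere in the same complex on chromosome 3. In K14Snail the positive minus negative difference of Lce1b was -0.40 for CD34 and -0.84 for Mts24, against 1.10 and 0.69 in wild type. For Lce1a1 it was -0.37 and -0.61 in K14Snail, against 0.88 and 0.43 in wild type. Crct1 had -1.03 and -0.56 in K14Snail, against 0.25 and 0.04 in wild type.

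**Figure D3:**
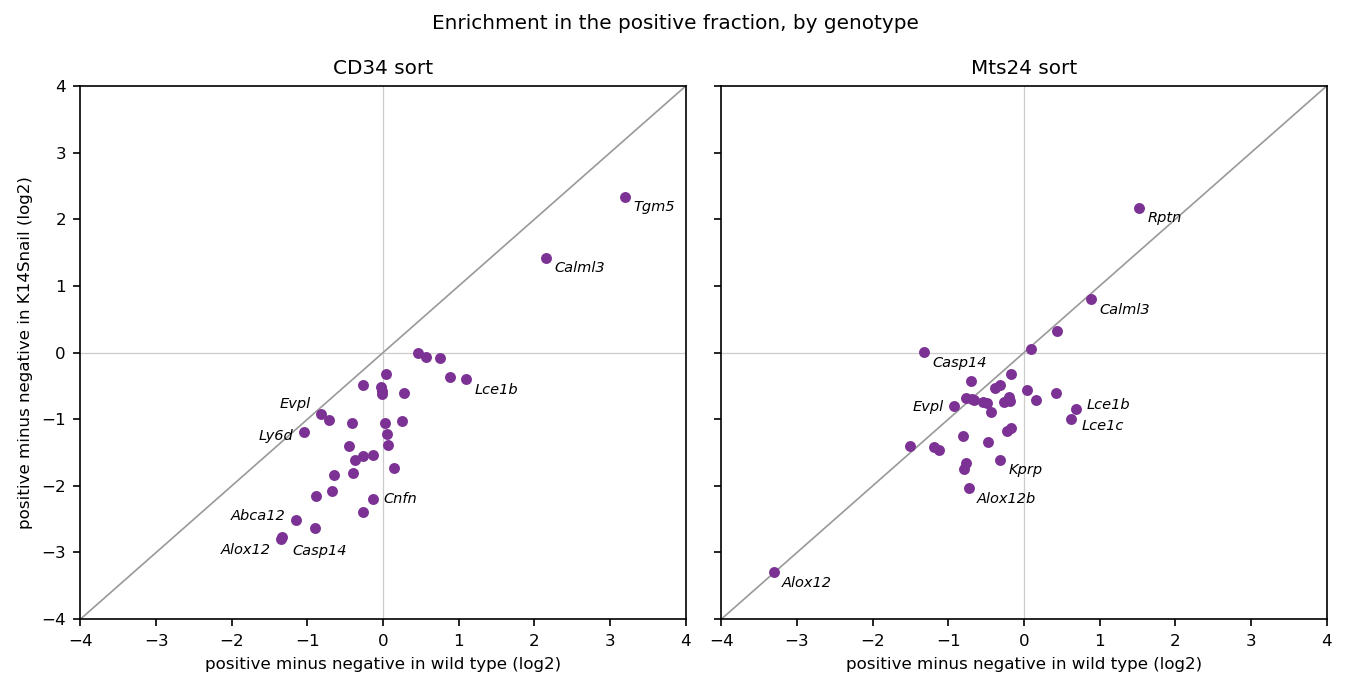
Positive minus negative fraction on the log2 scale, in K14Snail (vertical axis) against wild type (horizontal axis), for the CD34 sort (left) and the Mts24 sort (right); each point is a gene and each value comes from 2 arrays. In the CD34 sort every point lies under the diagonal of equal values, with a median of -1.21 in K14Snail and -0.20 in wild type, while in the Mts24 sort Alox12 and Calml3 lie close to it.

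The sorts were then compared within skin, with the negative fraction as the control that the study names. CD34 positive cells differed from CD34 negative cells, over both genotypes, for 12 of the 34 genes by limma, against 23.7% of all genes tested. Higher were 2 of the 34, against 12.1% of all genes, and lower were 10, against 11.6%. Tgm5 was higher by 2.77 ± 0.20 (6.81-fold, adjusted p = 0.000732) and Calml3 by 1.79 ± 0.19 (3.45-fold, adjusted p = 0.00239). Lower were Evpl (-0.87 ± 0.09, adjusted p = 0.00195), Ppl (-0.86 ± 0.11, adjusted p = 0.00399), Ly6d (-1.12 ± 0.18, adjusted p = 0.00847), Abca12 (-1.83 ± 0.32, adjusted p = 0.0113), Alox12 (-2.08 ± 0.44, adjusted p = 0.0213) and Cers3 (-1.52 ± 0.32, adjusted p = 0.0216). Tgm3 (-1.24), Lypd3 (-0.73), Calm4 (-1.77) and Scel (-0.38) were also lower, with limma adjusted p-values from 0.0375 to 0.0450. All 12 had their direction in both genotypes.

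By role, 3 of 7 barrier lipid genes, 3 of 10 precursors and scaffold proteins and 2 of 2 LU-domain proteins fell, and no late envelope gene or secreted suprabasal protein was called either way. The median of the 34 was -0.82 against -0.03 for all genes tested, and it was -1.21 in K14Snail and -0.20 in wild type. The count of lower calls moved with single arrays. Leaving out an array of this sort left 1 array in that fraction, so the counts of barrier genes called in such runs are not given. Tgm5, Calml3, Evpl and Ppl passed in every alternative run, with adjusted p-values up to 0.0411 by limma. Casp14 (-2.05 ± 0.64, adjusted p = 0.0722), Ivl (-1.38 ± 0.40, adjusted p = 0.0592) and Hrnr, hornerin, a filaggrin-like precursor (-0.995 ± 0.28, adjusted p = 0.0514), did not pass limma's threshold.

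Mts24 positive cells differed from Mts24 negative cells for 6 of the 34 genes, against 22.8% of all genes tested. Higher was 1 of the 34, against 11.1% of all genes, and lower were 5, against 11.7%. Calml3 was higher, by 0.84 ± 0.19 (1.79-fold, limma adjusted p = 0.0310). Lower were Alox12 (-3.30 ± 0.44, adjusted p = 0.00710), Evpl (-0.87 ± 0.09, adjusted p = 0.00383), Ppl (-0.65 ± 0.11, adjusted p = 0.0134), Them5 (-1.29 ± 0.29, adjusted p = 0.0291) and Abca12 (-1.30 ± 0.32, adjusted p = 0.0368). Each had its direction in both genotypes. Alox12 lay under 7.70 on both Mts24 positive arrays, so the size of its difference is uncertain. The median was -0.66 against 0.02 for all genes tested, at -0.75 in K14Snail and -0.46 in wild type.

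Of the roles, 3 of 7 barrier lipid genes and 2 of 10 precursors and scaffold proteins fell; Calm4 (-1.45 ± 0.47, adjusted p = 0.0780) and Flg2 (-1.21 ± 0.36, adjusted p = 0.0608) did not pass by limma. The count of lower calls moved with single arrays in this sort too. Each such run left 1 array in a fraction, so these counts are not given. Leaving out any one of the Mts24 arrays, or either CD34 negative array, ended the call of Calml3. Rptn, repetin, a filaggrin relative under 7.70 on all arrays and so not tested, read 7.13 and 6.64 in K14Snail and wild type Mts24 positive cells, against 4.96 and 5.12 in the Mts24 negative cells. With all genes tested regardless of level it was called higher in Mts24 positive cells.

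**Figure D4:**
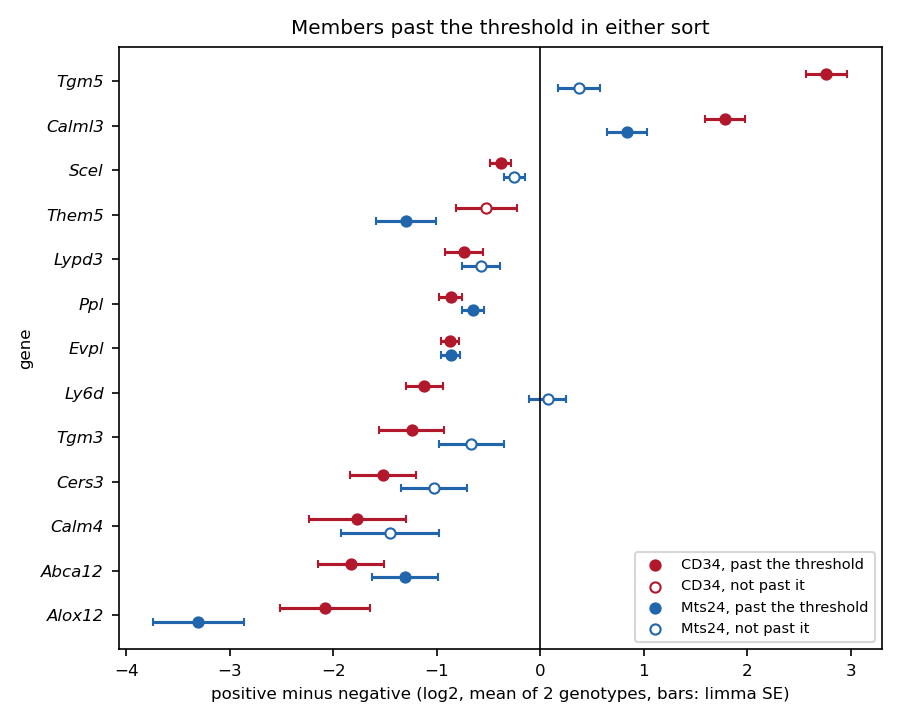
Positive minus negative fraction on the log2 scale, averaged over K14Snail and wild type, for the 13 genes called in either sort; bars are limma standard errors and filled points passed an adjusted p of 0.05. Tgm5 and Calml3 lie right of 0 in both sorts, the other 11 left of it in the CD34 sort, and Ly6d lies near 0 in the Mts24 sort.

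Tested against each other, the enrichments of the 2 sorts differed for 1 of the 34 genes, against 4.08% of all genes tested, and 2.38% in its direction. Tgm5 was enriched more with CD34 than with Mts24, by 2.39 ± 0.29 (limma adjusted p = 0.0151). Ly6d was enriched less, by -1.20 ± 0.25, with a limma adjusted p of 0.0700, and of 0.0418 without the pool block. Calml3 (0.94 ± 0.27, adjusted p = 0.144) and Spink5 (0.73 ± 0.23, adjusted p = 0.171) did not pass by limma. The median was 0.03 against -0.02 for all genes tested. Leaving out either CD34 negative array or any one of the Mts24 arrays ended the call of Tgm5, with adjusted p-values from 0.0568 to 0.0774. Without the K14Snail CD34 positive array the difference was 1.26 for Calml3, 2.01 for Alox12 and 1.27 for Them5. Without the wild type CD34 positive array it was -1.42 for Ivl, -1.17 for Calm4 and -1.42 for Ly6d. CD34 positive cells had 1 array in these 2 runs, so no calls are given.

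Other genes of cornification were read in 5 further lists. Over all genes tested, 11.6% fell and 12.1% rose in the CD34 sort, and 11.7% fell and 11.1% rose in the Mts24 sort. Of 21 barrier lipid genes tested, 9 fell and 1 rose in CD34 positive against negative cells, led by Acer1 (-2.42), an alkaline ceramidase, Cyp4f39 (-2.10), a fatty acid hydroxylase, and Pnpla1 (-1.88), which makes acylceramides, while Degs1 (0.56) rose. In the Mts24 sort 7 fell and none rose, among them Cyp4f39 (-1.92), Sptlc3 (-1.32), a subunit of the enzyme that starts sphingolipid synthesis, and Ugcg (-1.22). The limma adjusted p-values of these genes ran from 0.00865 to 0.0478. Of 5 suprabasal keratins, Krt78 (-2.06) and Krt1 (-1.85) fell in the CD34 sort and Krt78 (-2.74) in the Mts24 sort.

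Of 16 regulators of differentiation, 6 fell in CD34 positive cells, with Grhl3 (-1.64), Ovol1 (-1.29), Cebpa (-1.29) and Gata3 (-1.24) first, and Hopx (1.02) and Vdr (0.94) rose; in Mts24 positive cells 7 fell and Vdr (1.5) and Cebpb (0.33) rose. Of 10 further genes of the epidermal differentiation complex, Sprr1b fell with CD34 (-1.88) and rose with Mts24 (0.66), as did Sprr4 (4.47) and Sprr1a (1.35) with Mts24, small proline-rich envelope precursors all. The test of the difference between the sorts called Sprr4 (-5.91) and Sprr1b (-2.54), and of the desquamation genes Klk10 (-3.20) and Cst6 (-1.59). Of 15 desquamation genes, Klk11 (-2.16) and Blmh (-0.60) fell and Klk14 (1.14) rose with CD34, while Klk10 (2.94), Klk6 (1.76) and Cst6 (1.41) rose and Blmh (-1.08) fell with Mts24. Between genotypes 3 of the 67 genes tested in these lists passed, against 2.05% of all genes, and 1 without the pool block, against 0.382%: Sprr1b rose in K14Snail by 1.75 ± 0.10 (limma adjusted p = 0.00535), Klk6 by 1.81 ± 0.25 (adjusted p = 0.0375, and 0.0727 without the pool block) and Cebpb by 0.33 ± 0.05 (adjusted p = 0.0435, and 0.0778 without the pool block).

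Markers of other cells and states moved beside the low barrier genes of K14Snail CD34 positive cells. The log2 of the summed level of 7 cell cycle genes was 13.16 in K14Snail and 10.99 in wild type CD34 positive cells, with 7 of 7 higher, and that of 11 myeloid and Langerhans cell genes was 13.24 in K14Snail and 11.68 in wild type, with 11 of 11 higher. Of the myeloid genes 2 lay under 7.70 in K14Snail and 7 in wild type CD34 positive cells. Krt1 and Krt10, the keratins of the spinous layer, summed to 13.33 in K14Snail and 14.20 in wild type CD34 positive cells. Bulge genes summed to 15.07 in K14Snail and 15.42 in wild type, 3 upper follicle genes to 13.95 and 13.09, and 5 melanocyte genes to 10.29 and 9.12. Higher in K14Snail were 2 of the 3 upper follicle genes and 4 of the 5 melanocyte genes. Plet1 was the upper follicle gene that was not, at 11.74 in K14Snail and 11.82 in wild type. Of the melanocyte genes 2 lay under 7.70 in K14Snail and 5 in wild type CD34 positive cells.

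The same lists also differed between genotypes in other fractions. The 8 sebaceous gland genes summed to 12.67 in K14Snail and 14.05 in wild type CD34 positive cells, and to 13.34 in K14Snail and 13.96 in wild type CD34 negative cells, with none higher in K14Snail in either fraction. Their median difference was -1.63 in CD34 positive and -1.56 in CD34 negative cells, while that of the barrier genes was -1.20 and 0.02. Of these 8 genes 5 lay under 7.70 on both K14Snail CD34 arrays, against 1 and 0 on the wild type CD34 positive and negative arrays. In Mts24 positive cells the myeloid sum was 13.41 in K14Snail and 11.71 in wild type, with 2 and 8 of the 11 genes under 7.70, and the cell cycle sum 12.92 in K14Snail and 12.54 in wild type. Over the 8 arrays the myeloid sum ran from 11.68 to 14.00 and the cell cycle sum from 10.89 to 13.16. The part of these markers in the barrier gene differences was not tested.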

How the data were processed

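Labelled RNA of 8 pooled keratinocyte samples was measured on Affymetrix arrays, 1 per group. Per the submitters' processing notes, the authors used RMA to make the deposited log2 values per probe set. RMA corrects background, quantile normalizes arrays and summarizes the probes of a set. The RMA version and genome build are not given in the sources used here. Values run from 3.04 to 14.49, and array medians from 7.32 to 7.42. The number of arrays limits the precision.

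Of 28874 probe sets, 21789 carry 1 gene symbol, 1621 several and 5464 none. Only the first kind was used, and for 999 genes with several probe sets the brightest on average was taken, which left 19938 genes. Genes reaching 7.70 on at least 2 arrays were tested (10720). limma 3.58.1 (R 4.3.3, statmod 1.5.0) fitted genotype and the 4 fractions, and treated arrays of 1 pool, meaning 1 genotype and marker, as a random block (duplicateCorrelation, consensus correlation -0.175, 3 residual and 2.78 prior degrees of freedom). A genotype by positive fraction term gave the interaction (2 residual and 3.08 prior degrees of freedom). P-values were adjusted by Benjamini-Hochberg over all genes tested, at 0.05, and errors are limma's standard errors. The labels do not say that positive and negative fractions came from the same mice; the pool block was set because the pool sizes match. A single fraction has 1 array per genotype, and there genes were counted at a log2 difference of 1, with no test. Tables, motif searches and plots used Python 3.11.15, pandas 2.3.3, numpy 2.4.6 and matplotlib 3.10.9.

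The barrier genes, their roles and the further lists were chosen with earlier results of these data known. Values on all 8 arrays are given for genes past the threshold in a comparison and for the gene with the largest difference in each role, and of the further lists at most 6 called genes are named, largest first. Alternatives were no pool block, the pool as a fixed block, other filters, a further quantile normalization, median centring, the mean over probe sets, a mean-variance trend, and leaving out each array and each pool; where these gave no estimate of the pool correlation, that of all 8 arrays was used.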

Additional observations from a re-analysis of the deposited data

Results flagged for a closer look

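For 7 genes the K14Snail array lay under the wild type array in both positive fractions and over it in both negative fractions. The negative side was small: K14Snail minus wild type was 0.01 to 0.29 in the negative fractions over these genes, against -1.84 to -0.23 in the positive fractions, and it was 0.04 and 0.01 for Cers3 and 0.07 and 0.03 for Spink5 in CD34 and Mts24 negative cells. With 1 array a group these differences have no test. The genotype difference in positive minus that in negative fractions was -1.71 for Alox12b, -1.18 for Aloxe3, -0.95 for Asprv1, -0.85 for Cers3, -0.76 for Smpd3, -0.71 for Cdsn and -0.47 for Spink5. The difference itself was tested with limma's interaction term, and the adjusted p-values ran from 0.233 for Aloxe3 to 0.689 for Asprv1, so none passed. Smpd3 was dim, at most 8.67 on any array. Of these genes, 4 act on the lipids of the barrier (Alox12b, Aloxe3, Cers3 and Smpd3), and the other 3 on the adhesion of dead cells or on proteolysis (Cdsn, Asprv1 and Spink5).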

How the results depend on the processing

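Without 1 array or 1 pool, the barrier genes called between genotypes stayed at 0, and their median ranged from -0.54 to -0.11. In the CD34 sort 2 were called higher in every such setting and 3 to 24 lower, with a median from -1.21 to -0.20. In the Mts24 sort 0 to 1 were called higher and 0 to 19 lower, with a median from -0.92 to -0.36. For the difference between the sorts 0 to 4 were called higher and 0 to 3 lower, with a median from -0.53 to 0.53. For the interaction 0 to 1 were called higher and 0 to 22 lower, with a median from -1.22 to -0.33; Casp14 ranged from -1.45 to 1.35, reversing without either CD34 positive array, where the Mts24 sort alone gives the positive side. Of the other settings, 1 gene, Evpl, was called lower between genotypes with the filter on the mean over the 8 arrays, with quantile normalization once more, with the mean over probe sets and with a mean-variance trend, at limma adjusted p-values from 0.0393 to 0.0499. With no filter on low values 2 genes were called higher in the Mts24 sort (Calml3 and Rptn), and 1, Rptn, was called lower in the difference between the sorts. There 1 gene, Ly6d, was called lower with no pool block, with quantile normalization once more and with the pool as a fixed block. The remaining counts of barrier genes called stayed within 1.5 times those reported. Over all genes the genotype calls numbered 220, against 41 with no pool block, 5 to 75 without 1 array and 0 to 1 without 1 pool. The CD34 calls numbered 2542, against 1154 to 2280 without 1 array and 1422 to 1877 without 1 pool. The Mts24 calls numbered 2448, against 661 to 2897 without 1 array and 0 without an Mts24 pool, and the difference between the sorts 437, against 232 with the pool as a fixed block, 14 to 830 without 1 array and 0 without an Mts24 pool. Interaction calls numbered 0. The counts above 0 given for the interaction came from runs without a CD34 positive or an Mts24 positive array. There the positive side held 1 array a genotype, so these counts are not read as findings. Values of single genes that were not called changed sign in 34 cases between genotypes, 18 in the CD34 sort, 13 in the Mts24 sort, 88 between the sorts and 23 in the interaction. No paired analysis by replicate number was possible because the labels carry none; the pool as a fixed block pairs the fractions by pool. The interaction without a pool was not run, since no residual degrees of freedom were left, and a fixed block cannot be applied to the genotype difference. With 1 array a group, differences within a fraction have no replicate check, and values under 7.70 limit what dim genes such as Alox12, Smpd3, Lce1f and Rptn can show.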
